A study of Homo sapiens with 15 samples.

Results

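FGFR3, FGFR4 and FGF13 are 3 of the 758 genes of a fixed RNA panel measured in JIMT-1, an established human HER2-positive breast cancer cell line. They were picked by name, with earlier results of the same libraries known, so their levels and their differences from the control are given as a description and carry no p-value. The study asked whether HSL119, a compound known here by its code name, changes expression the way shRNA against the serine/threonine kinase HUNK does. Of the 15 libraries, 4 are of control cells (CTL), 3 of cells given HSL119 at 1 ug/ul per the labels, and 4 each of the HUNK knockdown lines KD1 and KD2, which the labels list as grown in 1 ug/ul puromycin. All groups share the JIMT-1 line and medium with 10% fetal bovine serum. No treatment time is given, nor is it said what the control cells received (a vehicle, puromycin or a control shRNA) or whether a knockdown line is a clone or a pool. The part of HUNK loss and that of puromycin in a difference from CTL therefore cannot be told apart, and HUNK itself was not measured in the rows used here.

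FGF receptors are receptor tyrosine kinases that bind secreted fibroblast growth factors together with heparan sulfate, and then signal through RAS and the MAP kinases, PI3K and AKT, and phospholipase C gamma. FGFR3 and FGFR4 are members of this family, and both are known from epithelial cancers; FGFR4 also serves as the receptor for FGF19 in the liver. FGF13 shares the fold of the growth factors but belongs to the FGF homologous factors, which stay inside the cell and are known as partners of voltage-gated sodium channels and, for FGF13, of microtubules.

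Whole counts recovered from the deposited linear values came to 1241234 to 1561639 per library, and 622 genes with a linear value over 20 in at least 3 libraries were tested. All 3 members passed this filter in each of the 15 libraries. HSL119 replicate 2 had 619 panel genes over that value, against 531 and 546 in the other HSL119 libraries and 523 to 567 in the remaining groups. Levels below are normalised counts after scaling each library by the median of its ratios to the gene means, and differences are on the log2 scale. On the log2 values as deposited the typical gene lay 0.41 above CTL in HSL119, 0.43 in KD1 and 0.41 in KD2. On log2 of linear values plus 1 these medians are 0.08, 0.27 and 0.26. On the scale used here they are 0.05, 0.01 and -0.01, and are small by construction. A shift shared by most genes would also be removed by the scaling used here. With limma on this scale 206 genes were higher and 215 lower in HSL119, 151 and 136 in KD1, and 180 and 152 in KD2, against 300 and 145, 334 and 39, and 336 and 50 on the deposited values. Replicates 1 and 2 of CTL, KD1 and KD2, and replicates 3 and 4 of CTL and KD1, were near-duplicates whose chi-square over its degrees of freedom was 1.12 to 1.52, where counting error alone gives a value near 1. KD2 replicates 3 and 4 gave 21.5. In bulk RNA, a smaller share of cells with a transcript and less of it per cell cannot be told apart. The epithelial gene CDH1 and the HER2 gene ERBB2 were measured in all libraries, with CTL means of 12.75 and 12.27 on the log2 scale. GRB7, the neighbour of ERBB2 that is amplified with it, differed from CTL by -1.08 (SE 0.30) in HSL119, -1.07 (SE 0.28) in KD1 and -1.35 (SE 0.28) in KD2, against 1.51, 0.37 and 0.28 for ERBB2. Of the markers of other cells, the panel held 3 of 7 for fibroblasts, 6 of 6 for endothelium, 1 of 5 for T cells, 1 of 3 for B cells and 2 of 5 for myeloid cells. The 6 endothelial markers summed to linear values of 64.4 to 106 in CTL, 97.8 to 124 in HSL119, 105 to 282 in KD1 and 124 to 374 in KD2. PECAM1 alone reached 200.2 in KD1 and 251 in KD2, while the other 5 stayed at or under 28.7 in every library. The myeloid marker CD68 fell by 2.17 (SE 0.24) in HSL119 and differed by -0.77 (SE 0.22) in KD1 and -0.49 (SE 0.22) in KD2. CD163, the other myeloid marker on the panel, was below the filter. On the log2 scale it averaged 2.38 in CTL, 3.51 in HSL119, 1.10 in KD1 and 1.95 in KD2. The part of these markers in any result was not tested.

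FGFR3 moved in opposite directions under the compound and in the knockdown lines. In CTL replicates 1 to 4 it stood at 906, 933, 818 and 906 normalised counts. HSL119 replicates 1 to 3 had 2057, 1854 and 1949.5. KD1 replicates 1 to 4 had 359, 337, 226 and 219, and KD2 replicates 1 to 4 had 223, 238, 165 and 114. Every HSL119 library thus lay above every CTL library, and every knockdown library below. The HSL119 mean was 10.93 ± 0.08 on the log2 scale (SD, n = 3) against 9.80 ± 0.08 in CTL (SD, n = 4), a difference of 1.13 (SE 0.23) or 2.19-fold. KD1 averaged 8.12 ± 0.37 (SD, n = 4), a difference of -1.68 (SE 0.21) or 3.20-fold lower than CTL. KD2 averaged 7.47 ± 0.49 (SD, n = 4), a difference of -2.33 (SE 0.21) or 5.01-fold lower. With near-duplicates averaged, the SE was 0.25 in HSL119 and 0.27 in KD1 and KD2. In KD2, 4 of the 622 tested genes lay further below CTL than FGFR3, and in KD1 7 did. In HSL119, 84 genes lay further above CTL.

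FGFR4 was lower with HSL119 and close to CTL in the knockdown lines. CTL replicates 1 to 4 had 1362, 1247, 1172 and 1221 normalised counts, and HSL119 replicates 1 to 3 had 755, 639 and 579. KD1 replicates 1 to 4 had 1135, 1087, 1116 and 1088, and KD2 replicates 1 to 4 had 1175, 1201, 1081 and 1161. The HSL119 libraries lay under all others, and the KD2 libraries overlapped those of CTL. The difference of HSL119 from CTL was -0.93 (SE 0.09), or 1.91-fold lower, with a group mean of 9.35 ± 0.19 (SD, n = 3) against 10.29 ± 0.09 (SD, n = 4). KD1 differed by -0.17 (SE 0.08) and KD2 by -0.11 (SE 0.08). These errors count near-duplicate libraries singly, and with replicates 1 and 2, and 3 and 4, averaged the SE was 0.14 for both and 0.13 for HSL119. All 8 knockdown libraries were below the CTL mean on this scale, but on the deposited values KD1 lay 0.24 and KD2 0.31 above CTL, and on linear values plus 1 they lay 0.088 and 0.15 above it, so the small difference has no settled direction.

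FGF13 was highest in KD1, and its level was one at which counting error is large. The 4 KD1 libraries had 74.3, 63.1, 47.6 and 61.4 normalised counts, against 38.9, 22.9, 24.5 and 32.2 in CTL replicates 1 to 4. HSL119 replicates 1 to 3 had 38.05, 39.9 and 28.3, and KD2 replicates 1 to 4 had 33.1, 30.3, 24.4 and 24.5. The KD1 libraries lay above all others, and the HSL119, CTL and KD2 libraries overlapped. The recovered count ran from 20 in CTL replicate 2, with an exact Poisson 95% interval of 12.2 to 30.9, to 75 in KD1 replicate 1, with an interval of 59.0 to 94.0. These intervals cover counting error only. KD1 differed from CTL by 1.07 (SE 0.20), or 2.10-fold, HSL119 by 0.28 (SE 0.22) and KD2 by -0.06 (SE 0.20), and averaging near-duplicates gave an SE of 0.25 in KD1 and KD2 and 0.23 in HSL119. The log2 ratio of FGF13 to FGF12 within a library, which a single factor per library leaves as it is, was higher than in CTL by 0.87 in KD1, but ran from -0.58 to 0.42 there and from -1.38 to -0.45 in CTL, so that these ranges overlapped.

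**Figure D1:**
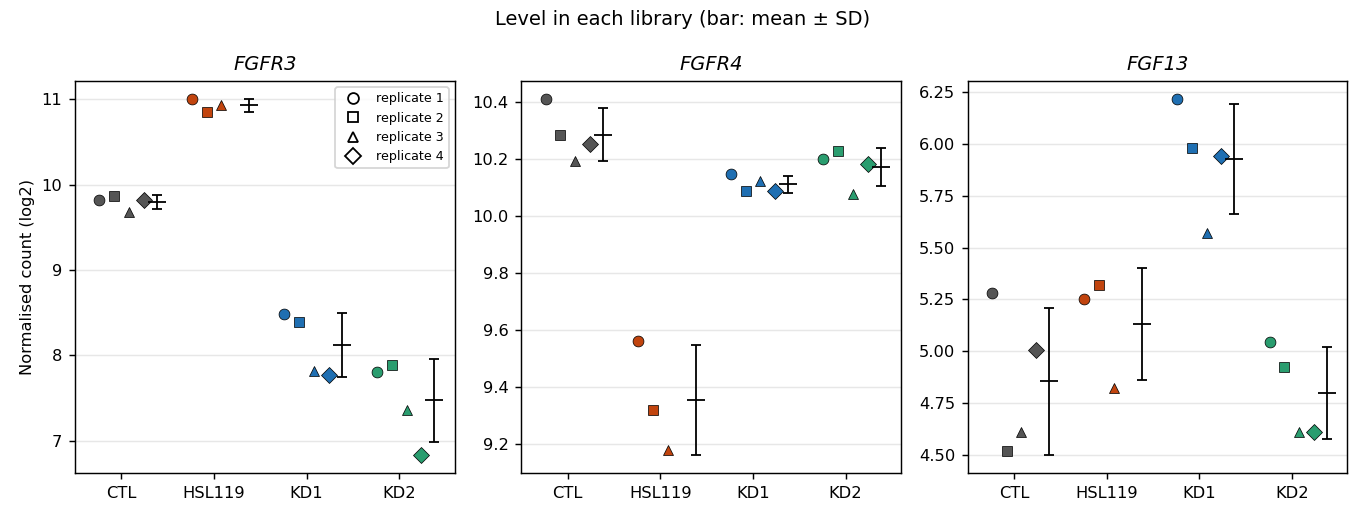
Level of FGFR3, FGFR4 and FGF13 in each library as log2 normalised count, with each panel on its own vertical axis. Marker shapes give the replicate number, and bars the group mean ± SD (n = 4 for CTL, KD1 and KD2, n = 3 for HSL119). FGFR3 runs from 6.83 in KD2 replicate 4 to 11.01 in HSL119 replicate 1, FGFR4 is lowest in the HSL119 libraries, and FGF13 is highest in the KD1 libraries.

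Groups that do not overlap were common on this panel. The libraries of HSL119 and CTL did not overlap for 74.9% of the 622 genes, those of KD1 and CTL for 51.1%, and those of KD2 and CTL for 53.4%, so the separation of members from CTL is read as a description alone. Beside this background, 2 of 3 members were separated from CTL in HSL119, 3 in KD1 and 1 in KD2. Between KD1 and KD2, 12.2% of genes did not overlap, FGF13 among them.

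The order of the group means was HSL119, CTL, KD1 and KD2 for FGFR3, CTL, KD2, KD1 and HSL119 for FGFR4, and KD1, HSL119, CTL and KD2 for FGF13. For FGFR3 the neighbours KD1 and KD2 overlapped, since KD1 ran from 7.77 to 8.49 and KD2 from 6.83 to 7.89 on the log2 scale. For FGFR4, KD1 and KD2 overlapped and so did KD2 and CTL. For FGF13 the last 3 groups overlapped.

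The knockdown lines were also set against each other, which leaves out the CTL libraries that their comparisons share. FGFR3 was higher in KD1 than in KD2 by 0.65 (SE 0.21), and FGF13 by 1.13 (SE 0.20), while FGFR4 differed by -0.06 (SE 0.08). Same-numbered libraries of these lines deviated together from their group means, with r of 0.59 to 0.76, but so did other numbers of the same set, 1 with 2 and 3 with 4, with r of 0.55 to 0.78. The 4 pairs below are therefore not 4 independent ones. In them the FGFR3 difference was 0.68, 0.50, 0.46 and 0.94, and the FGF13 difference 1.17, 1.06, 0.96 and 1.33, so that KD1 was the higher in each pair. FGFR4 was lower in KD1 in 3 of the 4.

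Within each knockdown line, FGFR3 was also lower in replicates 3 and 4 than in 1 and 2. This gap was -0.64 in KD1 and -0.75 in KD2, and -0.10 in CTL replicates. It was not particular to FGFR3, since 123 of the 622 genes had a larger gap in KD1 and 121 in KD2. With replicates 1 and 2 alone of CTL, KD1 and KD2, the FGFR3 difference from CTL was -1.39 in KD1 and -1.98 in KD2, and with replicates 3 and 4 alone it was -1.96 and -2.65. For FGF13 the gap was -0.34 in KD1 and -0.37 in KD2, and for FGFR4 -0.01 and -0.08. What sets these replicates apart is not given in the labels.

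A ratio of receptors within a library is not changed by multiplying the whole library by 1 factor, as centring and median of ratios do, although quantile normalization and the addition of 1 can change it. The log2 ratio of the FGFR3 to the FGFR4 value was -0.49 ± 0.08 in CTL (SD, n = 4), 1.58 ± 0.16 in HSL119 (SD, n = 3), -1.99 ± 0.36 in KD1 (SD, n = 4) and -2.70 ± 0.46 in KD2 (SD, n = 4). The change from CTL was 2.07 in HSL119, -1.50 in KD1 and -2.21 in KD2. HSL119 libraries ran from 1.45 to 1.75, CTL from -0.59 to -0.42, KD1 from -2.31 to -1.66 and KD2 from -3.35 to -2.34, so the ranges of the first 3 groups stood apart and those of KD1 and KD2 stood apart by a narrow margin. The ratio shows unequal change of the receptors, and its own sign, taken across different probes, has no meaning. Against FGFR2, another receptor on the panel, the log2 ratio of FGFR3 changed by 0.28 in HSL119, where both receptors were higher than in CTL, by -2.33 in KD1 and by -2.72 in KD2.

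**Figure D2:**
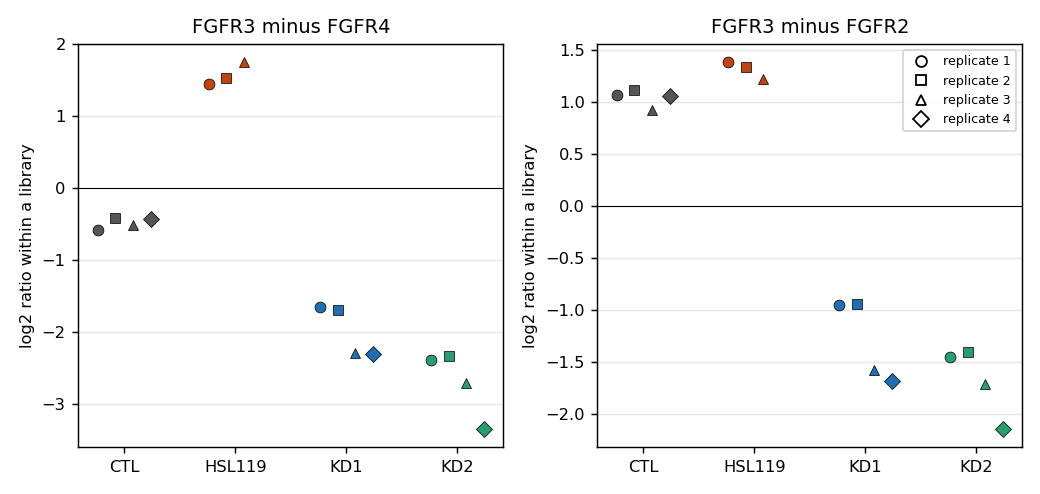
Log2 ratio of FGFR3 to FGFR4 (left) and to FGFR2 (right) within each library, from the deposited log2 values, with 1 point per library and marker shape for the replicate number. The FGFR3 to FGFR4 ratio is highest in HSL119 (1.45 to 1.75) and lowest in KD2 (-3.35 to -2.34). The FGFR3 to FGFR2 ratio separates both knockdown lines from CTL and HSL119.

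The letters just upstream of the annotated starts are shown for the members, because FGFR3 and FGFR4 moved apart and FGF13 lay high in KD1. They are 250-base RefSeq windows of GRCh38.p14, read 5′ to 3′ on the gene's strand, and not read from JIMT-1. The genes span chr4:1793293-1808867 (FGFR3), chr5:177086915-177098144 (FGFR4) and chrX:138614727-139205023 (FGF13). FGFR3 lies on the plus strand of chromosome 4, with the window at chr4:1793043-1793292, FGFR4 on the plus strand of chromosome 5 at chr5:177086665-177086914, and FGF13 on the minus strand of chromosome X at chrX:139205024-139205273. Capitals mark matches on either strand, and overlapping matches run together. The words searched were GGGCGG, known as the box bound by factors of the Sp1 type, then TATANA, which resembles the core promoter element of that name, and lastly TGANTCA, which is bound by AP-1.
FGFR3: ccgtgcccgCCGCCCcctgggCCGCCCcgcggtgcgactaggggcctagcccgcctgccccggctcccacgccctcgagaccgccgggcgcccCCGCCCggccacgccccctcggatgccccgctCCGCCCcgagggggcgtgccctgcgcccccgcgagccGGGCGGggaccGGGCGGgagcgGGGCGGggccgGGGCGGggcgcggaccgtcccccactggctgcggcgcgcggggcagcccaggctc
FGFR4: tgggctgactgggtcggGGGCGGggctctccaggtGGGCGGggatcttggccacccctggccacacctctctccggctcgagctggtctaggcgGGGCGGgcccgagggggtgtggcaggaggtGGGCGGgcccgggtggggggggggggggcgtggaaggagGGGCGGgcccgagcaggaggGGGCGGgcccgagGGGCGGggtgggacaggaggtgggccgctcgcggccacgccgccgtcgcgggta
FGF13: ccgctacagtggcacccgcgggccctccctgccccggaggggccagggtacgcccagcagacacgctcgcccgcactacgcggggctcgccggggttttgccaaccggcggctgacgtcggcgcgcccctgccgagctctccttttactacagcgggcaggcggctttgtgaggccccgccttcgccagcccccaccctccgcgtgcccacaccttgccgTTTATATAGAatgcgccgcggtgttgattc
The FGFR3 window held 8 matches of GGGCGG and the FGFR4 window 7, and neither held the other words. The FGF13 window held no GGGCGG and 3 overlapping matches of TATANA close to the start. Of 35116 windows of this length, 42.6% held GGGCGG, 17.7% TATANA and 6.57% TGANTCA. G and C made up 86.8%, 79.6% and 70.4% of the FGFR3, FGFR4 and FGF13 windows, against a median of 58.0% over all windows. FGFR4 and FGF13 each have 1 further annotated start. The 250 bases before it held 57.2% G and C and no match of the words for FGFR4, and 36.4% G and C with 1 match each of TGANTCA and TATANA for FGF13, and the panel does not tell which start a transcript came from. A match is a description of the letters alone.

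The rest of the FGF family on the panel was thin. For these genes, rose and fell mean an adjusted p below 0.05 by limma, in the same direction, on each of 5 scalings, both with every library and after averaging replicates 1 with 2 and 3 with 4. By this rule 38.4% of the 622 genes changed in HSL119 (20.3% rose and 18.2% fell), 8.04% in KD1 (6.91% and 1.13%) and 11.1% in KD2 (8.68% and 2.41%). On the main scale alone 67.7%, 46.1% and 53.4% passed. Over all lists given next, which hold 44 tested genes beside the members, 11 rose and 12 fell in HSL119 (52.3%), 3 rose and 0 fell in KD1 (6.82%), and 4 rose and 1 fell in KD2 (11.4%). The lists, like the members, were chosen with earlier results of these libraries known. Their counts and shares are therefore a description, and p-values of listed genes carry that limit. With limma on the main scale alone, 12 rose and 17 fell in HSL119, 12 and 4 in KD1, and 11 and 7 in KD2. SEs given for genes other than the members come from fits with every library, which count near-duplicates singly.

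FGFR2, the receptor whose splice forms divide epithelial from mesenchymal cells, rose by 0.86 (SE 0.08) in HSL119 and by 0.65 (SE 0.08) in KD1, with limma adjusted p of 5.1e-07 and 2.2e-05. In KD2 it differed by 0.39 (SE 0.08) and did not pass on every scaling. Its CTL libraries ran from 8.75 to 8.77 on the log2 scale, HSL119 from 9.51 to 9.70, KD1 from 9.34 to 9.46 and KD2 from 8.97 to 9.30, so no treated library reached down to CTL. GPC4, a heparan sulfate proteoglycan of the cell surface, fell by 3.79 (SE 0.22) in HSL119, from a CTL mean of 404 normalised counts to 30.5, and differed by -0.27 (SE 0.21) in KD1 and -0.08 (SE 0.21) in KD2.

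Of the 8 FGF genes on the panel, 4 were tested. FGF1, a ligand of all FGF receptors, fell by 1.05 (SE 0.19) in HSL119 and differed by 0.56 (SE 0.18) in KD1 and 0.54 (SE 0.18) in KD2. FGF18, a ligand known in bone and lung, differed by -0.57, -0.11 and -0.04 in HSL119, KD1 and KD2. FGF12, a homologous factor like FGF13, differed by -0.08 (SE 0.17), 0.20 (SE 0.15) and 0.30 (SE 0.15), and none of these passed. FGF2, FGF7, FGF9 and FGF10 were not tested, as too few libraries exceeded the filter. Their highest group mean was 23.9 normalised counts, for FGF7 in HSL119, where libraries ran from 17.7 to 31.3 against 10.4 to 15.0 in CTL.

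Among 10 tested adaptor and early signalling genes, 4 rose and 0 fell in HSL119, all of them subunits of PI3K. PIK3R3 rose by 2.46 (SE 0.31), PIK3R1 by 1.72 (SE 0.12), PIK3R2 by 0.90 (SE 0.10) and PIK3CA, the catalytic subunit, by 0.56 (SE 0.09). In KD2 PIK3R3 rose by 1.69 (SE 0.28), and in KD1 none of the 10 passed on every scaling, while 2 rose and 2 fell on the main scale alone. In KD1 PIK3R3 differed from CTL by 1.23 (SE 0.28), and its difference of KD1 from KD2 was -0.46 (SE 0.28). The list median was 0.32 in HSL119, 0.02 in KD1 and 0.01 in KD2, against 0.05, 0.01 and -0.01 over all tested genes. GRB2, the adaptor that links receptors to RAS, differed by -0.15, -0.62 and -0.63 and did not pass on every scaling.

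Of 10 tested feedback and target genes of FGF receptor signalling, 8 fell and 2 rose in HSL119, with a list median of -2.41. In KD1 none passed on every scaling, with 2 higher and 1 lower on the main scale alone, and the median was 0.09. In KD2 SPRY2, an inhibitor of the pathway, rose by 1.13 (SE 0.12), and the median was -0.22. In KD1 SPRY2 differed from CTL by 0.85 (SE 0.12), and its difference of KD1 from KD2 was -0.28 (SE 0.12). The largest changes in HSL119 were falls of SPRY4 (-4.91, SE 0.30), FOSL1 (-4.69, SE 0.25), FOS (-4.39, SE 1.34) and DUSP6 (-4.12, SE 0.39). SPRY4 reached at most a linear value of 11.2 in HSL119, under the filter value of 20, DUSP6 31.9 and FOS 40.9. The size of these falls is therefore imprecise. The 2 listed genes that rose were DUSP4 (2.87, SE 0.31) and SPRY2 (1.23, SE 0.13). Many receptors besides those for FGF feed these genes, and whether FGFR3 has a part in them was not tested.

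**Figure D3:**
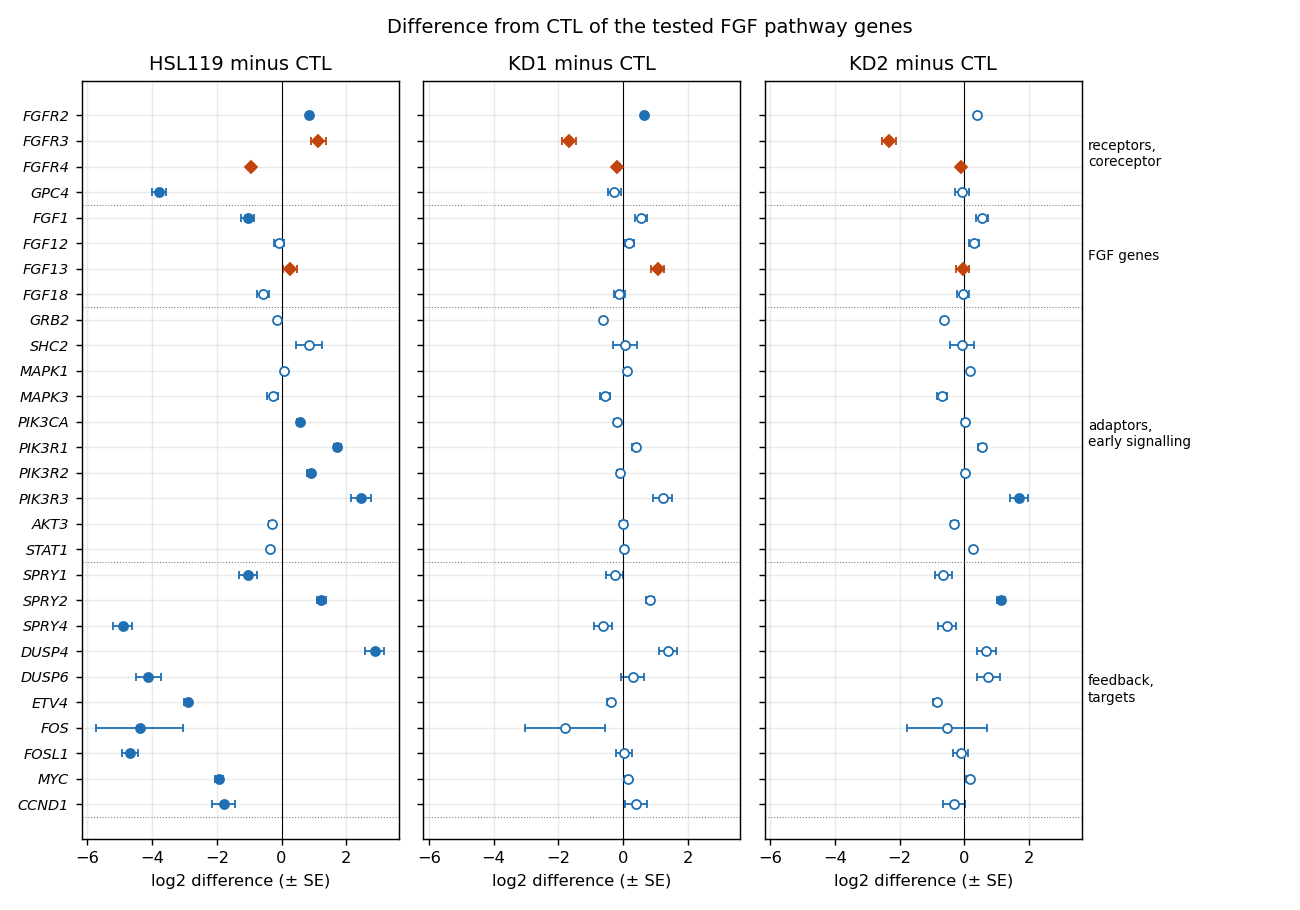
Log2 difference from CTL (± SE) of the tested receptors and coreceptor, FGF genes, adaptors and feedback or target genes. Red diamonds are FGFR3, FGFR4 and FGF13, which were chosen with results known. Filled blue circles passed limma's adjusted p under 0.05 on 5 scalings with all libraries and with pairs averaged, and open circles did not. FGFR3 is at 1.13 in HSL119 and at -1.68 and -2.33 in KD1 and KD2.

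As a comparison for the receptors, 11 other receptor tyrosine kinases were tested. In HSL119 ERBB2, the HER2 gene, rose by 1.51 (SE 0.08), IGF1R by 1.36 (SE 0.10) and EGFR by 0.72 (SE 0.10), and MET, the receptor of hepatocyte growth factor, fell by 0.78 (SE 0.07). In KD1 and KD2 EGFR alone of the 11 passed on every scaling, and it rose by 0.80 (SE 0.09) and 0.66 (SE 0.09). None of the 11 fell by that rule in either knockdown line. Of all 622 tested genes 1.13% fell by it in KD1 and 2.41% in KD2, so the lack of falls does not set the 11 apart. On the main scale alone 1 of the 11 fell in each line, PDGFRB, by 0.71 (SE 0.26) and 0.70 (SE 0.26). On that scale 136 of the 622 genes were lower in KD1 and 152 in KD2. The list median was 0.07 in HSL119, -0.12 in KD1 and 0.13 in KD2.

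No voltage-gated sodium channel gene of the list used beside FGF13 was among the tested genes, which numbered 8. CACNA2D3, an auxiliary calcium channel subunit, fell by 1.07 (SE 0.12) in KD2 and differed by -0.18 (SE 0.12) in KD1. In HSL119 CACNA1D, a pore subunit, rose by 2.75 (SE 0.39) and CACNG4, an auxiliary subunit, fell by 1.63 (SE 0.29). CACNA1D reached at most a linear value of 33.2 in CTL and CACNG4 31.1 in HSL119, so the size of both changes is imprecise.

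Between KD1 and KD2, none of the 44 listed genes passed on every scaling, a rule by which 0.161% of all genes passed. On the main scale 49 of 622 genes (7.88%) passed limma's test, and 149 did with the replicate number as a block in a fit of KD1 and KD2 alone. With that block 12 of the 44 listed genes passed, beside the 149 of all 622. Among them were CACNA2D3, higher in KD1 by 0.89 (SE 0.09), and FGFR2, higher by 0.26 (SE 0.08) with a limma adjusted p of 0.049. The block counts same-numbered libraries as independent pairs, which the near-duplicates among them are not. With pairs averaged and no block, 1 of the 622 genes passed on the main scale.

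The genes whose log2 levels followed each member most closely over the 15 libraries were found by Pearson's r, as a description. The libraries fall into 4 groups with near-duplicates among them, so the points are not independent. A pattern shared with the member follows from how these genes were picked. For FGFR3 these were ATM (0.98), a DNA damage kinase, PHGDH (0.98), of serine synthesis, the Wnt receptor FZD7 (0.97), SMAD4 (0.97), of TGF-beta signalling, and the deacetylase HDAC6 (0.96). All 5 lay above CTL in HSL119 and below it in both knockdown lines, by at most 0.59 up and 0.94 down, so FGFR3 moved further than any of them in each comparison. For FGFR4 they included TGFB1 (0.97), the phosphatase subunit gene PPP2R2C (0.97), the transcription factor NFATC1 (0.97) and the GTPase RAC3 (0.97). These 4 fell in HSL119, by between 1.12 and 3.73, against the 0.93 by which FGFR4 lay lower. For FGF13 the closest was APH1B (0.76), of gamma-secretase, and then the mitotic kinase AURKA (0.70), the keratin KRT5 (0.68), the phosphatase CDC25C (0.67) and the transcription factor GATA3 (0.66). Among the members r was -0.59 between FGFR3 and FGFR4, -0.10 between FGFR3 and FGF13 and -0.01 between FGFR4 and FGF13.

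**Figure D4:**
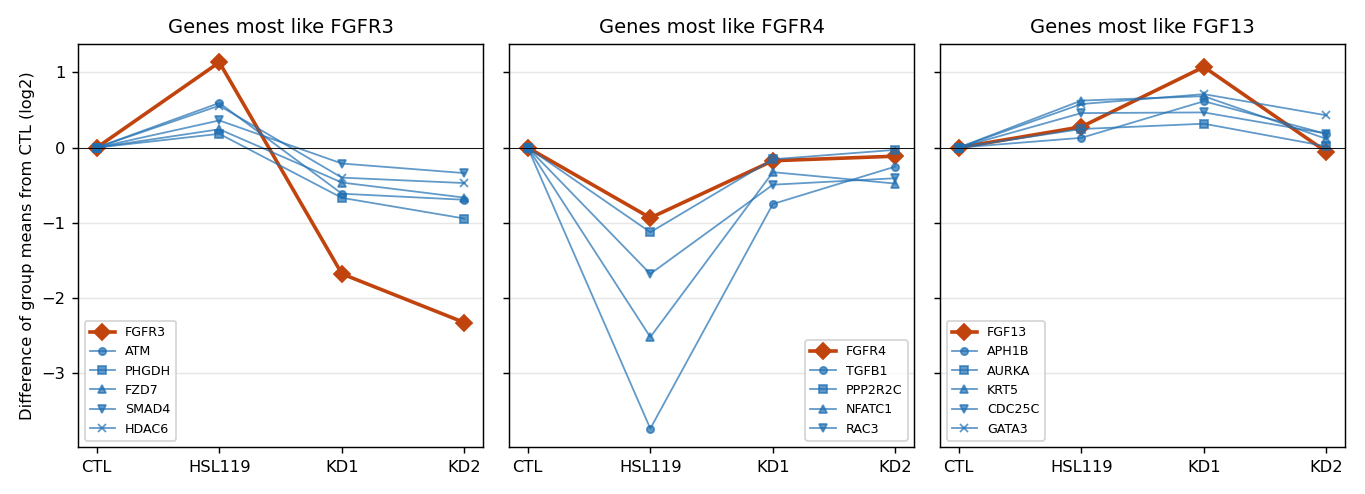
Difference of each group mean from CTL (log2) for FGFR3, FGFR4 and FGF13 (red) and for genes among the 5 most correlated with each over 15 libraries (blue; 4 of them are shown for FGFR4). CTL is 0 by construction. The genes most like FGFR3 share its order of groups at smaller size, and those most like FGFR4 are lowest in HSL119. They were picked by correlation over these same libraries, so a shared pattern follows from the choice.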

How the data were processed

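RNA of 15 JIMT-1 libraries was measured on a fixed panel. Per the file headers, the deposited table gives log2 and linear normalized counts for each library. How the authors normalized them, and with which aligner and build, is not given in the sources used here. The deposited linear values are treated as a signal, and each is a whole multiple of its library's smallest step (within 0.01), which gave the recovered counts (100.0% of values whole). In HSL119 replicates 2 and 3 the step was less well supported by low values, so count models left HSL119 out. Between the deposited blocks each library has its own log2 offset, averaging -0.16 in CTL, 0.17 in HSL119 and nil in the knockdowns, which scaling by median of ratios removes.

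Genes over a linear value of 20 in at least 3 libraries entered limma 3.58.1 (R 4.3.3), in 1 fit of 4 groups with eBayes and a trend, with two-sided p-values and Benjamini-Hochberg adjustment for 622 genes. Calls in the text needed an adjusted p under 0.05 on 5 scalings (median of ratios, deposited, log2 of linear plus 1, sample medians, quantile), with all libraries and with pairs averaged. Alternatives were these, other filters, no trend, fewer libraries, a replicate block and edgeR 4.0.16 on recovered counts. The fit was tested on simulated data. Same-numbered KD1 and KD2 libraries deviated together (r 0.59 to 0.76), which meets the rule used for pairing, but other numbers of the set 1 and 2 or 3 and 4 did so as much (r 0.55 to 0.78), so the data show the sets and not the numbers. CTL did not pair with the knockdowns (r -0.21 to -0.01). The labels do not say that libraries came from separate cultures, so p-values measure the spread between these libraries. Named genes are the members, every gene of lists with up to 6 tested, up to 4 of the largest calls of longer lists, and the 5 genes most like each member, less a few results that are not reported here. Exceptions, named after their values were seen, are GRB2, PDGFRB, the markers GRB7, PECAM1, CD68 and CD163, and the KD1 against KD2 examples. Members and lists were chosen with earlier results of these data known. Coordinates and symbols are those of RefSeq, GRCh38.p14.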

Additional observations from a re-analysis of the deposited data

Results flagged for a closer look

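FGF18 stood at 6.50 on the log2 scale in CTL replicate 1, while the other CTL libraries lay between 6.20 and 6.22. The gap to its neighbour was 92.1% of the range of the group. Among 8 FGF receptor, coreceptor and FGF genes in 3 groups of 4 libraries each, it was the only value of its kind, and chance gives about 1 in 20 groups. The recovered count behind it was 70, with an exact Poisson 95% interval of 54.6 to 88.4. Before scaling, the other CTL libraries had counts of 64 to 69, so counting error is large beside this gap.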

How the results depend on the processing

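Of the member differences from CTL, those of FGFR3 in all 3 groups, of FGFR4 in HSL119 and of FGF13 in KD1 and in HSL119 (0.020 to 0.63) kept their direction under every alternative run, while FGFR4 in both knockdown lines and FGF13 in KD2 did not. On the deposited log2 values FGFR3 differed by 1.49 in HSL119, -1.26 in KD1 and -1.90 in KD2, FGFR4 by -0.58, 0.24 and 0.31, and FGF13 by 0.63, 1.49 and 0.36. On linear values plus 1, as log2, FGFR4 differed by 0.088 in KD1 and 0.15 in KD2. With centring on sample medians FGFR3 differed by 0.88 in HSL119 and FGFR4 by -1.19, -0.29 and -0.25, and after quantile normalization FGFR4 differed by -1.17, -0.25 and -0.22. The replicate block moved FGFR3 in HSL119 to 1.03 and ended no call of a listed gene. Replicates 1 and 2 alone of CTL, KD1 and KD2 gave FGFR3 in KD1 -1.39, and 3 and 4 alone -1.96. Counts of 20 to 75 limit the precision for FGF13. Leaving out 1 library at a time, FGFR3 ran from 1.08 to 1.17 in HSL119, -1.80 to -1.56 in KD1 and -2.47 to -2.10 in KD2. FGFR4 ran from -1.05 to -0.85 in HSL119, -0.21 to -0.14 in KD1 and -0.14 to -0.07 in KD2, and FGF13 ran from 0.17 to 0.43 in HSL119, 0.96 to 1.21 in KD1 and -0.17 to 0.08 in KD2. Genes that passed then numbered 384 to 438 in HSL119, 232 to 297 in KD1, 283 to 341 in KD2 and 22 to 54 between the lines. Between the lines 22 passed without KD1 replicate 2, 31 without KD1 replicate 1 or 3, and 28 without KD2 replicate 3. With pairs averaged, 124 genes passed limma in KD1 in place of 287, and 142 in KD2 in place of 332. By edgeR on recovered counts 278 passed in KD1, 324 in KD2 and 57 between the lines, and HSL119 was not run. On linear values plus 1 the split of higher and lower calls was 238 and 60 in KD1 and 275 and 72 in KD2, and with sample medians 144 and 264 in HSL119, 114 and 186 in KD1 and 127 and 205 in KD2. Between KD1 and KD2 the 49 became 1 with pairs averaged (52 at an unadjusted p under 0.05), 79 with replicates 1 and 2, 77 with 3 and 4, and 149 with the replicate block in these lines, an alternative chosen after seeing the data. The cause of these moves was not tested.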
